A study of Mus musculus with 6 samples.

Results

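Satellite glia and Schwann cells are the glia of the dorsal root ganglion (DRG), and 30 genes that mark them or work in them were followed through 6 RNA libraries of sorted embryonic DRG cells. The genes were fixed by name, with no measured value in the rule, though earlier results of these data were known when they were chosen. All 30 were found by symbol among 41388 gene identifiers. They are 4 transcription factors, 8 receptors, ligands and secreted regulators, 9 genes of glial precursors and satellite glia, and 9 genes of myelin and myelin contact. The libraries came from C57BL/6 embryos at 18.5 dpc that carried EGFP under the Ret gene. The sources differ on the allele: the genotype label reads Tg(Ret-EGFP)SJ, and the series text speaks of heterozygotes with EGFP knocked into Ret. Female A was pooled from 60 ganglia of 3 embryos, and females B and C from 20 ganglia of 1 embryo each. Male A was pooled from 60 ganglia of 3 embryos, and males C and D from 40 ganglia of 2 embryos each. Every library held EGFP-positive cells sorted by flow cytometry from DRG of segments T11 to S1. Ret encodes the signalling receptor of the GDNF family ligands and is carried by many DRG neurons, so the glial genes were read out in a fraction selected for another lineage. The EGFP-negative cells were not analysed here, and in these bulk samples fewer glial cells and less RNA per glial cell cannot be told apart.

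Both glial types descend from neural crest. Sox10 and Foxd3 are active in the crest-derived precursors, satellite glia settle around neuron cell bodies, and Schwann cells line up along axons, where neuregulin acting through the ErbB2 and ErbB3 receptors drives their growth and survival. In Schwann cells that go on to myelinate, Pou3f1 (also called Oct6) and then Egr2 switch on the myelin genes, and Mbp and Pmp22 supply major proteins of compact myelin.

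Total counts were 17861500 to 29330101 per library, and a count of 0 allows up to 3 counts, or 0.102 to 0.168 CPM (counts scaled to a common total). All 10 sensory neuron markers had counts, led by Stmn2 and Tubb3 with means of 2781 and 2389 RPKM. RPKM here is CPM per kilobase of summed exons, scaled between libraries by the trimmed mean of M values (TMM), and RPKM levels can be compared between genes. Of all libraries, male A had the most RNA of fibroblast and meningeal markers, 2880 CPM in sum against 576 to 677 CPM in the other 5, and of endothelial and pericyte markers, 107 CPM against 43.4 to 83.7 CPM. Neither marker list holds any of the 30 glial genes. Male A also stood apart over all genes, with a correlation of log2 counts across genes of at most 0.955 with any other library, where each of the others reached at least 0.984 with its closest library (genes are not independent replicates). Male A is therefore set against the other 5 libraries below, as a description of a library without replicate, and sex results are given with and without it.

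Promoter windows are shown for 3 genes that were at least 2-fold higher in male A than in any other library, Prx, Egfl8 and Cnp, and for Fabp7, the glial gene with the highest mean, which was lowest in male A. RefSeq (GRCm38.p6) gave windows for 23 of the 30 genes. Each run below is read 5′ to 3′ on the gene's strand and holds up to 250 bases before the start, less bases that belong to an annotated exon. The windows are chr7:27499074-27499323 (plus strand) for Prx, chr17:34615972-34616221 (minus strand) for Egfl8, chr11:100574689-100574903 (plus strand) for Cnp and chr10:57784673-57784880 (plus strand) for Fabp7. Capitals mark the short motifs ACAAAG or ACAATG, core letters bound by Sox proteins, and CCCACGC, core letters bound by Egr proteins, on either strand.
Prx: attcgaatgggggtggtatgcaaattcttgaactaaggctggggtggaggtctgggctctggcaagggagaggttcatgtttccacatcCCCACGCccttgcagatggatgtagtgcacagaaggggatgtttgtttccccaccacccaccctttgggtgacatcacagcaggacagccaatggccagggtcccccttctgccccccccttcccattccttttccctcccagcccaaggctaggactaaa
Egfl8: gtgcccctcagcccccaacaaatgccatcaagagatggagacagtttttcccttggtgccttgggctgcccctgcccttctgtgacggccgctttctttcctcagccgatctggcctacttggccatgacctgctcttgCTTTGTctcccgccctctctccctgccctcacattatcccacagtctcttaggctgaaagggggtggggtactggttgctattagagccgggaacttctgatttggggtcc
Cnp: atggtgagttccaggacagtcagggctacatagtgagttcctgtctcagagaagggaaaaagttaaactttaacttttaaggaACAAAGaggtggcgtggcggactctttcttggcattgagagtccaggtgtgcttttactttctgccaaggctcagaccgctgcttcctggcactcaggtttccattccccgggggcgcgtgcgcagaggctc
Fabp7: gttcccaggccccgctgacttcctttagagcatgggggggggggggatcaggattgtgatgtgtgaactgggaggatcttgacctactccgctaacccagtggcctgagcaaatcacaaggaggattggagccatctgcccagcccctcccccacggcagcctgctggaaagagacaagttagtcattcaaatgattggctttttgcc
Prx held CCCACGC, Egfl8 and Cnp held ACAAAG, in Egfl8 as its reverse complement CTTTGT, and the Fabp7 window held none of the 3. Erbb2, Ednrb, Gfap, Mal and Gjc3 were also at least 2-fold higher in male A, and their windows held none of the 3 motifs. Fabp7 held ACAAT, a motif that was counted but is not marked. The printed windows therefore give no contrast between genes high and low in male A. Over whole windows of 250 bases, ACAAAG occurred in 5 of the 23 genes (Apoe, Cnp, Egfl8, Mag and Sox2), against 18.6% of all genes with a window. ACAATG occurred in 2 of 23 (Apoe and Cadm4), against 12.2% of all genes, and CCCACGC in 2 of 23 (Foxd3 and Prx), against 4.94%. In all, 9 motifs were counted, several of them overlapping, and the 3 shown were chosen after the counts were seen. These matches describe letters and do not show binding.

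The 30 genes as a set had counts in every library and took a larger share of counts in male A. The 30 genes took 0.892% of all counts in male A, against 0.274% to 0.331% in the other 5 libraries. Of their 159266 counts in male A, Sparc gave 48384, Pmp22 23018, Apoe 18449 and Dbi 9704. Other cell types also make RNA of these genes, and how much of the larger share came from glia was not tested. In male A, 18 of the 30 genes were at least 2-fold above every other library, where 4.29% of the 14958 genes tested met that rule, and 22 were highest there, against 31.1% of genes tested. The median ratio of male A over the median of the other 5 libraries was 3.39-fold over the 30 genes, a log2 ratio of 1.76, against a median log2 ratio of -0.01 over all genes tested. Ratios were computed on TMM-scaled CPM with 0.1 added. By role, the median log2 ratio was 2.14 for transcription factors, 1.44 for receptors and ligands, 0.02 for precursor and satellite glia genes and 2.59 for myelin genes. The 18 genes were 7 of 9 myelin genes, 3 of 4 transcription factors, 5 of 8 receptors and ligands, and 3 of 9 precursor and satellite glia genes. Fabp7, S100b, Glul and Ptprz1 were lowest in male A, 4 of 30 genes, against 28.3% of genes tested. A library lay far apart from the other 5 (by Dixon's 95% value for 6 samples) in 20 of the 30 genes, against 12.4% of genes tested, and it was male A on the high side in 19, against 8.86%.

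**Figure D1:**
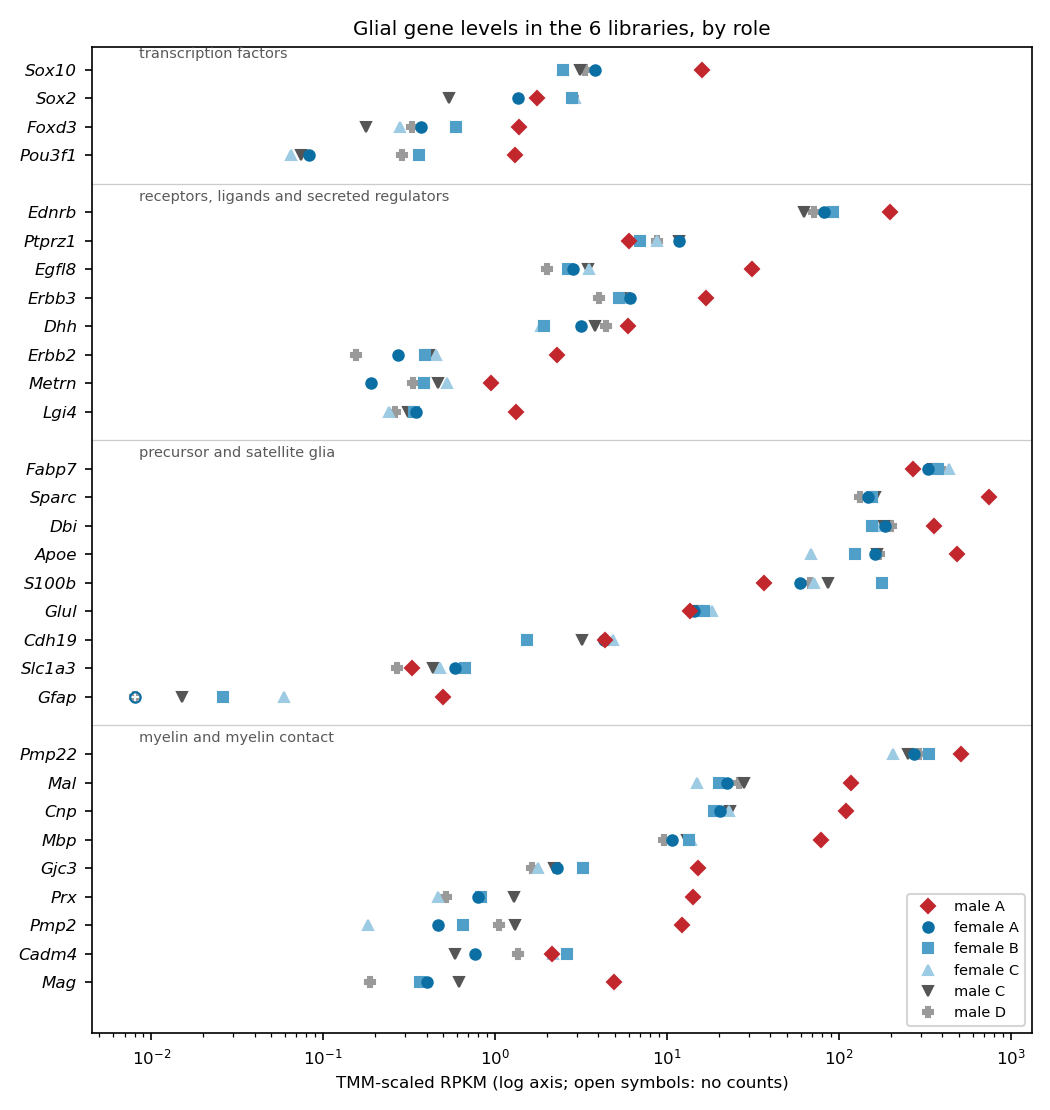
Level of each of the 30 glial genes in TMM-scaled RPKM (log axis), 1 symbol per library, genes grouped by role and ordered by mean within a role; open symbols mark libraries with no counts. The male A diamond lies to the right of all other symbols for 22 genes, and to the left of all others for Fabp7, S100b, Glul and Ptprz1.

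Among the transcription factors, 3 of 4 were higher in male A. Sox10 (chr15:79154913-79164490, minus strand, GRCm38 as in the files), which specifies and maintains the glial lineage, had 16.1 RPKM in male A, against 3.80, 2.49 and 2.49 RPKM in females A, B and C and 3.11 and 3.36 RPKM in males C and D. The 5 other libraries lay close together, with a coefficient of variation of 18.6%, and male A was 5.11 times their median. Foxd3, a forkhead factor of neural crest and early glia, had 1.37 RPKM in male A, against 0.177 to 0.595 RPKM in the other 5. Pou3f1, which promotes the step of Schwann cells into myelination, had 1.30 RPKM in male A, against 0.083, 0.359 and 0.065 RPKM in females A, B and C and 0.074 and 0.286 RPKM in males C and D. Male A was thus 12.2 times the median for Pou3f1, but the other libraries themselves varied by 80.0% and female B and male D were high among them. Sox2 did not follow. It is a factor of precursors that is switched off as Schwann cells myelinate, and it had 1.75 RPKM in male A, against 1.35, 2.80 and 2.92 RPKM in females A, B and C and 0.538 and 2.84 RPKM in males C and D. Female A and male C were below male A for Sox2, and the remaining 3 libraries were above it. Pou3f1 shares 330 exon bases with Gm2164 on the other strand and Foxd3 shares 89 with Gm23366, and no source used here says whether counting used strand.

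Neuregulin receptors and their neighbours in signalling were split in the same way. Erbb3, the receptor that binds neuregulin in glia, had 17.0 RPKM in male A, against 6.13, 5.30 and 5.91 RPKM in females A, B and C and 5.60 and 4.03 RPKM in males C and D. Erbb2, its signalling partner, had 2.30 RPKM in male A, against 0.272, 0.393 and 0.451 RPKM in females A, B and C and 0.413 and 0.156 RPKM in males C and D. Male A was 3.03 times the median of the others for Erbb3 and 5.62 times for Erbb2, and no other library came near it. Ednrb, the endothelin receptor of precursors and satellite glia, was the most abundant gene of this group, with 198.7 RPKM in male A against 63.0 to 92.4 RPKM in the other 5. Egfl8, an EGF-like secreted protein gene (chr17:34613349-34615971, minus strand), had 31.4 RPKM in male A, against 2.85, 2.67 and 3.52 RPKM in females A, B and C and 3.49 and 2.01 RPKM in males C and D, a ratio of 10.8 to their median. Its exons share 615 bases with Gm20460 on the same strand. Lgi4, a secreted Schwann cell ligand needed for timely myelination, had 1.32 RPKM in male A and 0.240 to 0.348 RPKM in the other 5. Of its exons, 2059 bases overlap Fxyd3 on the opposite strand, so reads of the 2 genes may be mixed.

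The other 3 genes of this group stood apart less or not at all. Dhh, the hedgehog ligand by which Schwann cells organise the perineurium, had 5.92 RPKM in male A, against 1.84 to 4.40 RPKM in the other 5. Metrn, a secreted factor of glial differentiation, had 0.947 RPKM in male A, against 0.191 to 0.524 RPKM. Ptprz1, a receptor-type phosphatase of immature glia, had 6.02 RPKM in male A, against 11.8, 7.01 and 8.80 RPKM in females A, B and C and 11.7 and 8.81 RPKM in males C and D. Male A was below every other library for Ptprz1, with a ratio of 0.684 to their median. Dhh shares 1107 exon bases with Gm49442, which is not among the files' identifiers, and Metrn 859 with Gm26694, both on the opposite strand.

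**Figure D2:**
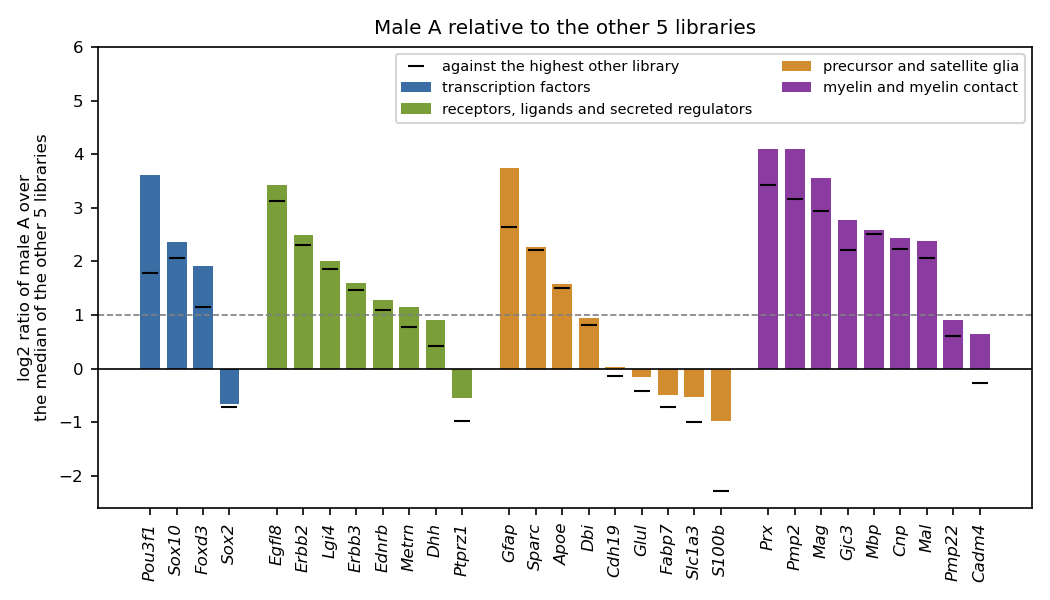
Bars give the log2 ratio of male A over the median of the other 5 libraries for each gene, coloured by role; black ticks give the ratio to the highest other library, and the dashed line marks 2-fold. Prx and Pmp2 have the tallest bars, and Fabp7, S100b, Glul, Slc1a3, Sox2 and Ptprz1 lie below 0.

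Precursor and satellite glia genes held most of the summed level of the 30 and were split in male A. Their sum was 4458 CPM in male A, against 1636 to 1793 CPM in the other 5, while the median log2 ratio was 0.02. Of the 9, 4 were highest in male A, against 31.1% of genes tested, and 3 were lowest there, against 28.3%. Fabp7 (chr10:57784881-57788450, plus strand) encodes the brain-type fatty acid binding protein of glial precursors and immature satellite glia. It had 269 RPKM in male A, against 331, 379 and 439 RPKM in females A, B and C and 351 and 386 RPKM in males C and D. It was the most even abundant marker, with a mean of 359 ± 57.3 RPKM (SD, n = 6), and male A was lowest, at 0.712 of the median of the others. S100b, a calcium-binding protein of satellite and Schwann cells, had 36.5 RPKM in male A, against 59.4, 177 and 71.9 RPKM in females A, B and C and 86.4 and 68.2 RPKM in males C and D. Male A was lowest for S100b, and female B stood above all others. Glul, the glutamine synthetase of satellite glia, spanned 13.6 to 18.2 RPKM and differed 1.34-fold between its highest and lowest library, the smallest spread among the 30 genes. Part of its transcript, 40.2%, has a near copy in Glns-ps1, and its counts may be split with that pseudogene.

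Cdh19, a cadherin of Schwann cell precursors, had 4.38 RPKM in male A, against 4.31, 1.53 and 4.84 RPKM in females A, B and C and 3.20 and 4.39 RPKM in males C and D, so that male A lay inside the others. Slc1a3, the glutamate transporter GLAST, was low throughout, at 0.330 RPKM in male A and 0.269 to 0.667 RPKM elsewhere. Gfap, the intermediate filament of astrocytes and of some non-myelinating Schwann cells, had 40 counts in male A, against 0, 2 and 5 counts in females A, B and C and 2 and 0 in males C and D. It did not pass the filter on low counts for the sex test.

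Sparc, Apoe and Dbi, which many cell types share with glia, were higher in male A. Sparc, a secreted collagen-binding protein made by fibroblasts and endothelium as well as Schwann cells (chr11:55394500-55420080, minus strand), had 751 RPKM in male A, against 148, 155 and 156 RPKM in females A, B and C and 162 and 133 RPKM in males C and D. In the other 5 libraries Sparc was the least variable of the 30 genes, with a coefficient of variation of 7.37%, and male A was 4.83 times their median. Apoe, the lipid carrier made by satellite glia and macrophages, had 487 RPKM in male A, against 163, 124 and 69.2 RPKM in females A, B and C and 166 and 172 RPKM in males C and D. Dbi, an acyl-CoA binding protein, had 356 RPKM in male A and 155 to 201 RPKM in the other 5. Male A was 2.99 times the median of the others for Apoe and 1.94 times for Dbi. Sparc had the highest level of the 30 genes in male A, where Fabp7 led in each of the other 5 libraries.

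As a group, myelin genes stood furthest apart, with a median log2 ratio of 2.59, and Prx and Pmp2 had the largest ratios of the 30. Next came genes of other groups, Gfap at 13.4 times the median of the others, from 40 counts in male A, and Pou3f1 at 12.2 times. Prx, periaxin, which links the outer Schwann cell membrane to the cytoskeleton (chr7:27499324-27520214, plus strand), had 14.1 RPKM in male A, against 0.802, 0.833 and 0.466 RPKM in females A, B and C and 1.29 and 0.515 RPKM in males C and D. Pmp2, the fatty acid binding protein of peripheral myelin (chr3:10179851-10183885, minus strand), had 12.2 RPKM in male A, against 0.468, 0.649 and 0.183 RPKM in females A, B and C and 1.30 and 1.05 RPKM in males C and D. The ratio of male A to the median of the others was 17.2 for Prx and 17.0 for Pmp2, and in both genes male C came second. Pmp2 rests on 319 counts in male A and 5 to 56 in the other libraries, and 87.1% of its transcript is shared with Gm37389, which lies on the same strand and is not among the files' identifiers. Mag, the myelin-associated glycoprotein that faces the axon, had 4.90 RPKM in male A, against 0.188 to 0.614 RPKM in the other 5, a ratio of 11.8.

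Most of the more abundant myelin genes were 5.25 to 6.81 times as high in male A. Mbp, myelin basic protein (chr18:82475146-82585637, plus strand), had 79.1 RPKM in male A, against 10.8, 13.5 and 13.8 RPKM in females A, B and C and 13.1 and 9.68 RPKM in males C and D. Cnp, a membrane-anchored phosphodiesterase of myelinating cells (chr11:100574904-100591729, plus strand), had 109.6 RPKM in male A, against 20.3, 18.8 and 23.1 RPKM in females A, B and C and 23.3 and 19.5 RPKM in males C and D. Mal, a proteolipid of myelin membrane transport, had 117 RPKM in male A, against 22.3, 20.1 and 15.1 RPKM in females A, B and C and 28.0 and 26.3 RPKM in males C and D. Male A was 6.03, 5.39 and 5.25 times the median of the others for Mbp, Cnp and Mal. Gjc3, a connexin of myelinating glia, had 15.1 RPKM in male A and 1.64 to 3.24 RPKM in the other 5, a ratio of 6.81. Cnp shares 154 exon bases with Dnajc7 and Prx shares 300 with Gm15541, both on the opposite strand.

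Pmp22 and Cadm4 departed from the other myelin genes. Pmp22, a tetraspan protein of compact myelin that is also made by fibroblasts and by some neurons, was the second most abundant of the 30 genes. It had 511 RPKM in male A, against 273, 334 and 207 RPKM in females A, B and C and 253 and 294 RPKM in males C and D, a ratio of 1.87. Cadm4, the adhesion molecule by which Schwann cells bind axons, had 2.15 RPKM in male A, against 0.760, 2.61 and 2.18 RPKM in females A, B and C and 0.586 and 1.35 RPKM in males C and D. Females B and C were above male A for Cadm4, and both were above male A for Sox2 too.

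Counts were also set against Fabp7 within each library, which removes the difference in total depth; Fabp7 was itself lowest in male A, which raises these ratios there. Male A held 49.5 Pmp2 counts per 1000 Fabp7 counts, against 0.456 to 4.04 in the other 5 libraries, and 234 Prx counts, against 4.74 to 16.4. Sox10 stood at 129 counts per 1000 Fabp7 counts in male A, against 12.3 to 24.9. Set against Mbp instead, Sox10 did not stand apart, with 65.6 counts per 1000 Mbp counts in male A and 58.4 to 114 in the others. Of the summed RPKM of the 30 genes, myelin genes took 28.2% in male A and 20.3% to 25.9% elsewhere, and precursor and satellite glia genes 62.5% in male A and 66.4% to 71.0% elsewhere. Among the 18 genes with the 2-fold excess, the second highest library was male C for 6, females B and C for 4 each, female A for 3 and male D for 1, so no other library came second throughout.

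Of the glial genes outside the 30, most Schwann cell and myelin genes were higher in male A, and precursor and satellite glia genes were split. Of 15 other Schwann cell and myelin genes, 11 were at least 2-fold above every other library in male A, against 4.29% of genes tested. The median log2 ratio of the 15 to the median of the others was 2.09. Among them, Egr2, the factor that switches on myelin genes, had 14.2 RPKM in male A, against 2.89, 6.35 and 4.77 RPKM in females A, B and C and 2.15 and 2.68 RPKM in males C and D. The 11 also included Pllp, Fa2h, Cldn19, Art3, Gjb1, Ncmap, Ugt8a, Gldn and Itga6. Art3 had the highest level of these 9 in male A, with 41.1 RPKM there and 4.31 to 8.37 RPKM elsewhere, and Pllp had 7.41 RPKM in male A and 0.132 to 0.820 RPKM elsewhere. Col28a1, a collagen of peripheral glia, did not stand apart, with 15.8 RPKM in male A and 9.77 to 15.6 RPKM elsewhere. Of 7 other precursor and satellite glia genes, 4 were highest in male A, against 31.1% of genes tested, with a median log2 ratio of 1.08 over the 7. The 2-fold rule was passed by 2 of the 7, the filament genes Vim and Nes, against 4.29% of genes tested. Vim, which fibroblasts also make, had 427 RPKM in male A and 152 to 191 RPKM elsewhere. Gja1 and Kcnj10, the connexin and potassium channel of satellite glia, had 46.2 and 4.12 RPKM in male A, against 14.9 to 28.7 and 0.935 to 2.93 RPKM in the others. Ngfr, the p75 receptor shared by precursors and neurons, was lowest in male A, with 18.1 RPKM in male A and 34.0 to 84.0 RPKM elsewhere, and its highest library was female B, as for S100b. Sox9 and Tfap2a, at low levels throughout, were also lower in male A, at 0.490 and 0.640 of the median of the others.

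The partners through which neurons and glia speak to the 30 gene products were split in male A. Their sum was lowest there, at 669 CPM against 1134 to 1424 CPM in the other 5. Their median log2 ratio to the median of the others was 0.40, against -0.01 over all genes tested. Of 8 partner genes, 1 was at least 2-fold above every other library in male A, against 4.29% of genes tested. It was the endothelin ligand Edn3, at 0.267 RPKM against 0 to 0.081 RPKM. Edn3 rests on 21 counts in male A and 0 to 6 elsewhere, and it did not pass the filter on low counts. Nrg1, the axonal neuregulin read by Erbb2 and Erbb3, had 36.4 RPKM in male A, against 53.7, 71.8 and 84.7 RPKM in females A, B and C and 61.4 and 44.6 RPKM in males C and D. Adam22, a receptor of Lgi4, had 7.96 RPKM in male A and 21.8 to 30.1 RPKM elsewhere, and Cntn1, an axonal contactin that binds Ptprz1, 31.2 RPKM in male A and 59.9 to 89.2 RPKM elsewhere. Adam11, a relative of Adam22, was highest in male A, with 21.5 RPKM in male A and 9.78 to 13.9 RPKM elsewhere.

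Male A was singled out by its fibroblast and meningeal and its endothelial and pericyte sums, so that their height there restates the choice; their values are given as a description, and the part of other cell types in the glial result was not tested. Of 9 fibroblast and meningeal markers, 5 were at least 2-fold above every other library, against 4.29% of genes tested. Col1a1 had 111 RPKM in male A and 5.28 to 13.0 RPKM elsewhere. Dcn, the most abundant gene of that list, did not stand apart, with 138 RPKM in male A and 129 to 190 RPKM elsewhere. Of 10 endothelial and pericyte markers, 7 met the rule, against 4.29% of genes tested. The most abundant genes of this list, Rgs5 and Pdgfrb, had 5.93 and 7.03 RPKM in male A, against 3.58 to 12.0 and 3.23 to 5.59 RPKM elsewhere. Of 6 cell cycle genes, 4 met the rule, against 4.29% of genes tested. Their summed levels were 222 CPM in male A against 66.7 to 84.5 CPM in the other 5. Pcna and Cdk1 were the most abundant, with 15.2 and 12.8 RPKM in male A, against 10.1 to 14.6 and 1.96 to 3.81 RPKM. None of 9 macrophage markers met the rule, and they summed to 14.4 CPM in male A, against 8.53 to 11.9 CPM in the other 5. Their 2 most abundant, Fcer1g and C1qb, had 11.2 and 1.73 RPKM in male A, against 7.68 to 10.96 and 0.175 to 1.01 RPKM. None of 10 sensory neuron markers met the rule either, with a sum of 15586 CPM in male A, against 15976 to 22082 CPM in the other 5. Mitochondrial genes took 1.10% of counts in male A, the lowest share of the 6, and 1.28% to 2.91% elsewhere.

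**Figure D3:**
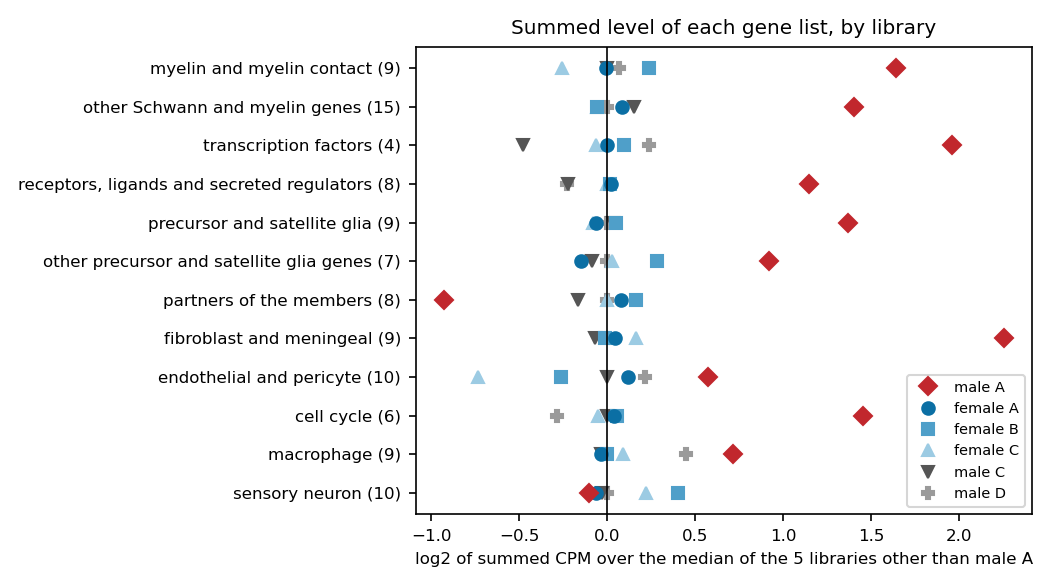
Summed CPM of each gene list in each library, as log2 over the median of the 5 libraries other than male A; numbers in parentheses are genes per list. Male A lies right of all others for every glial list, fibroblast and meningeal, endothelial and pericyte, cell cycle and macrophage genes, and left of all others for the partner and sensory neuron lists.

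The design otherwise allows 1 comparison, female against male cells, and none of the glial genes passed its test. Of the 30 genes, 29 passed the filter on low counts, and 0 of these were called by the edgeR quasi-likelihood test at an adjusted p under 0.05, with adjusted p between 0.961 and 0.996. Over all genes the test called 4, which is 0.0267%. At an unadjusted p under 0.05 there were 9 of 29 genes, against 4.42% of genes tested, and DESeq2 called 1 of the glial genes, Pmp2, among 13 genes called of the 14939 with an adjusted p. The fitted log2 change, female minus male, was below 0 for 22 genes and above 0 for 7, with a median of -1.02, against 0.00 over all genes. Without male A it was below 0 for 14 and above 0 for 15, with a median of 0.05, and for 10 genes the sign differed between the 2 fits. The smallest adjusted p without male A was 0.999. The labels state 2 mothers for female A and 2 for male C, and no number for the other libraries. No source used here says whether the libraries were independent beyond their embryos, so the p-values measure the spread between these libraries.

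The sexes did not overlap in 5 of the 30 genes, against 8.06% of genes tested. Males were higher in 4 of the 30, Dhh, Apoe, Pmp2 and Mal, against 3.88% of genes tested, and females in 1, Slc1a3, against 4.18%. Dhh had 3.15, 1.92 and 1.84 RPKM in females A, B and C, against 5.92, 3.80 and 4.40 RPKM in males A, C and D, a log2 change of -1.03 (SE 0.32), and -0.83 (SE 0.30) without male A. The gap lay between 3.15 RPKM in female A and 3.80 RPKM in male C. Slc1a3 had 0.588, 0.667 and 0.481 RPKM in females A, B and C, against 0.330, 0.434 and 0.269 RPKM in males A, C and D, a log2 change of 0.74 (SE 0.33), and 0.71 (SE 0.34) without male A. Both values stayed within 1 SE of themselves without male A, and neither gene passed the edgeR test, with an adjusted p of 0.961 for each with all libraries.

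Pmp2 had the largest fitted change. It averaged 0.434 ± 0.235 RPKM in females and 4.86 ± 6.38 RPKM in males (SD, n = 3 each), a log2 change of -3.47 (SE 0.99) with an edgeR adjusted p of 0.961. Without male A the change was -1.44 (SE 0.57). DESeq2 gave an adjusted p of 0.0345 for Pmp2, within a range of 7e-05 to 1.00 over the alternative fits. Prx averaged 0.700 ± 0.203 RPKM in females and 5.30 ± 7.63 RPKM in males (SD, n = 3 each), and its log2 change was -2.92 (SE 1.03) with male A and -0.38 (SE 0.42) without it. Sparc and Mbp had log2 changes of -1.19 and -1.42 with male A and 0.05 and 0.15 without it. Fabp7 averaged 383 ± 54.1 RPKM in females and 336 ± 60.0 RPKM in males (SD, n = 3 each), a difference smaller than the spread within a sex.

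**Figure D4:**
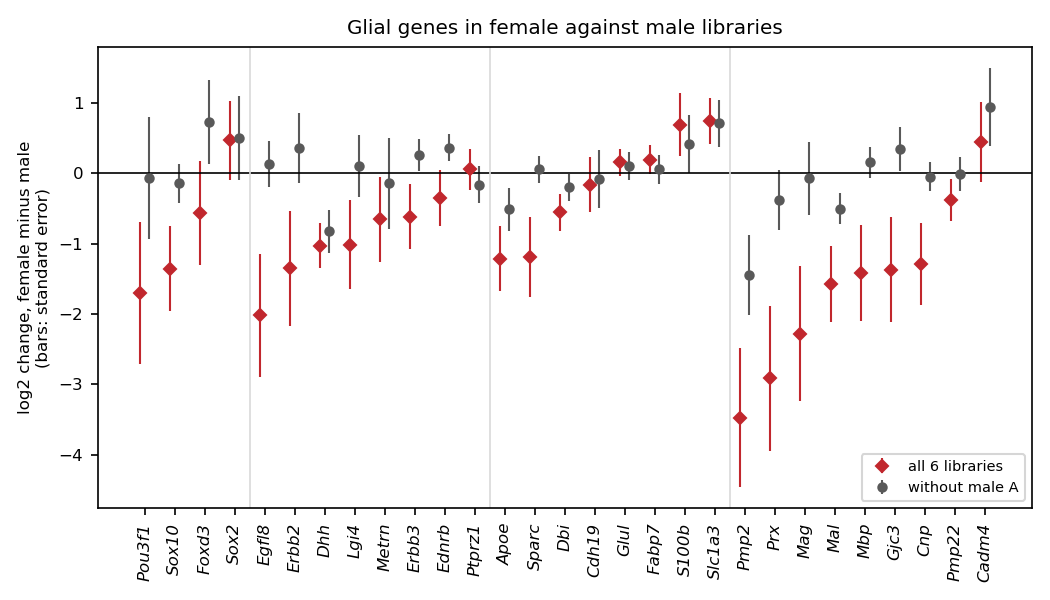
Fitted log2 change, female minus male, of the 29 tested genes with its standard error, with all 6 libraries (diamonds) and without male A (circles), grouped by role. The myelin genes Pmp2, Prx and Mag lie furthest below 0 with all libraries, and without male A the median is 0.05.

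Females B and C also differ from the other 4 libraries in how their records were written, with the tag age in place of developmental stage, and in being single-embryo pools. Within the 4 libraries of the first kind of record, female A alone stands against the 3 males, and the log2 change was -3.35 for Pmp2, -0.58 for Dhh and 0.76 for Slc1a3. The second kind holds no male, so no sex difference can be computed in it. S100b was above 0 with all libraries, at 0.69 (SE 0.44), and -0.10 within the first kind; its highest library was female B.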

How the data were processed

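RNA from EGFP-positive DRG cells was sequenced in 6 libraries, 3 female and 3 male, from 10 ng of RNA with a SMARTer Ultra Low kit and 12 PCR cycles, per the labels, without molecular identifiers; limits from counts of 0 therefore cover counting error only. Per the submitters' processing notes, the authors aligned reads with Subread and counted them with featureCounts 1.4.5 on GRCm38.p2; no source used here states the Subread version or the strand and multi-mapping settings. The authors deposited raw counts per gene with exon length, CPM and RPKM, 1 file per library. Recomputing the deposited CPM and RPKM from counts and lengths gave largest differences of 4.5e-11 and 1.2e-11, and the analysis used the counts and lengths. A symbol was found for 40254 of the 41388 identifiers.

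The 30 genes, the role groups and the other gene lists were chosen with earlier results of these data known. TMM factors (0.922 to 1.08) and the quasi-likelihood F-test came from edgeR 4.0.16 in R 4.3.3, with genes kept by filterByExpr on sex (14958 genes), sex as the only term and Benjamini-Hochberg adjustment over all genes; changes are female minus male. The biological coefficient of variation was 31.1%. The script was tested on simulated data. All 30 genes are named; of the other glial lists, those called, those at least 2-fold above every other library in male A and the 4 with the highest RPKM; of the marker lists, counts, sums and the 2 highest. Some genes of these lists are not reported here. Exon overlaps and near copies (at least 95% identity over at least 150 bases, blastn 2.17.0) were taken from GENCODE M21. Letters A and C occur in both sexes. Deviations from the sex mean of same-letter libraries correlated at -0.11 (A) and 0.04 (C) over 14958 genes. For female A with male C and female C with male A the values were 0.08 and 0.04. The same-letter values were not higher, so letters were not used as pairs. With 3 libraries per sex mean, male A among them, this check cannot show what the letters stand for. Alternatives were RLE scaling, 2 other low-count filters, DESeq2 1.42.0, each library left out in turn, a block for the replicate letter, the kind of record as a term or 1 kind only, and other scalings and pseudocounts for the male A ratios. A fit without male A and male C was added after the data were seen.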

Additional observations from a re-analysis of the deposited data

Results flagged for a closer look

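For 20 of the 30 glial genes, 1 library lay far from the other 5, the gap to its nearest neighbour taking more of the whole range than Dixon's 95% value for 6 samples. Chance flags about 1 in 20 groups, and 12.4% of all genes tested were flagged in these libraries, 8.86% with male A highest. Male A was the library apart, on the high side, in 19 of the 20 genes. The share of the range was 0.903 for Sox10, 0.650 for Foxd3 and 0.762 for Pou3f1 among transcription factors. It was 0.862 for Erbb2, 0.838 for Erbb3, 0.784 for Ednrb, 0.8999 for Lgi4 and 0.948 for Egfl8 among receptors and ligands. Among precursor and satellite glia genes it was 0.880 for Gfap, 0.753 for Apoe, 0.953 for Sparc and 0.772 for Dbi. Among myelin genes it was 0.941 for Mbp, 0.907 for Pmp2, 0.950 for Cnp, 0.873 for Mal, 0.940 for Prx, 0.910 for Mag and 0.881 for Gjc3. S100b was the exception, with female B apart on the high side at 0.646.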

How the results depend on the processing

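No glial gene changed sign while called. The count of glial genes called between the sexes, 0 with all libraries, was 1 without a low-count filter and 1 with DESeq2, each time Pmp2 (adjusted p 0.0483 and 0.0345). It was 2, Pmp2 and Prx, with the replicate letter as a block, a fit with 1 residual degree of freedom whose letters were not shown to pair the libraries. The count over all genes, 4, was 14 without a filter, 13 with DESeq2, 77 with the block, 0 with the kind of record as a term and 0 within the first kind. In both of these the sex change rests on female A alone, which is assumed to vary like the males, so these 0 calls do not show whether the result depends on the kind of record. Leaving out each library gave 0 to 5 genes, with 0 without female A. The median log2 sex change of -1.02 ranged from -1.16 to 0.052 over the fits that left out 1 library, with the highest without male A, and was 0.12 without male A and male C. Per gene, 360 sex changes kept their sign and side of the threshold, 4 passed it and 40 changed sign while uncalled. The median log2 ratio of male A over all 30 genes, 1.76, was 1.87 with library totals, 1.54 with a pseudocount of 1 CPM, 1.78 in TPM, 1.83 against the mean of the other 5, and 1.74 to 1.89 with 1 library left out. For transcription factors it was 1.72 with a pseudocount of 1 CPM. For precursor and satellite glia genes, 0.02, it was 0.13 with library totals, 0.26 against the mean and 0.011 to 0.22 with 1 library left out. The count of 18 genes at least 2-fold higher in male A was 17 with a pseudocount of 1 CPM. Leaving out male A leaves no male A ratio. Library totals shift the median sex change of all genes by -0.11. Genes with few counts, such as Gfap, limit what these depths can show.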

Other observations

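Central glia and pigment cell precursors were described by lists that hold none of the 30 genes. Of 7 oligodendrocyte markers, Olig2, Opalin and Mobp had no counts in any library, and Olig1 had 1 count in female A and 0 in every other library. Cldn11, a claudin that fibroblast-like meningeal cells also make, had 11.7 RPKM in male A, against 1.51, 1.71 and 1.57 RPKM in females A, B and C and 1.13 and 1.87 RPKM in males C and D. Mog had 0.184 RPKM in male A and 0.647 to 1.47 RPKM elsewhere, so the 2 genes with the highest levels of that list went opposite ways. Of 6 melanoblast markers, none was at least 2-fold above every other library in male A, and Tyr had no counts in any library. Tyrp1 had 28.4 RPKM in male A and 20.6 to 36.3 RPKM elsewhere, and Mitf 0.134 RPKM in male A and 0.132 to 0.481 RPKM elsewhere.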
